A study of Caenorhabditis elegans with 6 samples.

Results

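The genes described here are those named for proteins of the cytosolic ribosome. They were chosen by symbol: every protein-coding gene whose name begins with *rpl*, *rps* or *rla* followed by a number. The rule found 81 of the 20191 protein-coding genes, by name 47 for the large subunit, 31 for the small subunit and 3 for the stalk, and it used no measured value. Whether the product of each gene is part of the mature ribosome was not checked. The libraries come from whole *C. elegans* dauer larvae sequenced as mRNA. *daf-16(0)* larvae carried the deletion *daf-16(mgDf50)* together with *daf-7(e1372)*, and control larvae carried *daf-7(e1372)* alone, so the *daf-7* allele, which drives larvae into dauer, was shared by all libraries. Larvae were grown for 52 h at 24 °C, and those taken as dauer were selected manually for each genotype, so a library holds the animals that were picked and not the whole culture. There were 3 libraries of each genotype, all from whole animals. The protocol speaks of 2 biological replicates per strain, so the origin of the additional library in each group is not given, and p-values measure the spread between these libraries. The labels and the protocol name the *daf-16(0)* strain differently (VT2127 and VT2317).

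The ribosome is built from a large and a small subunit, each a core of ribosomal RNA with a coat of small, basic proteins. The small subunit reads the messenger RNA, the large subunit forms the peptide bond, and a flexible stalk on the large subunit recruits the elongation factors. Because each protein is needed in about equal number, the genes for them are usually expressed together and at high level, and their output follows growth. Dauer is a non-feeding, long-lived larval arrest in which growth stops, and DAF-16, the FOXO transcription factor opposed by insulin signaling, is a regulator of that state.

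The deletion was seen in the counts: *daf-16* had 40.6, 63.3 and 43.3 normalized CPM (counts scaled to library size and by TMM factors) in *daf-16(0)* replicates 1 to 3, against 393, 353 and 197 in control replicates 1 to 3. Protein-coding genes held between 8103784 and 17808542 expected counts per library. The authors' deposited comparison set *daf-16(0)* replicates 2 and 3 against control replicates 1 and 2. These 4 libraries carry the main test here (the 4-library test), with all 6 beside it (the 6-library test). Unless DESeq2 is named, adjusted p-values come from edgeR's quasi-likelihood test, adjusted by Benjamini-Hochberg over all genes tested, with SE for the standard error of a log2 fold change. Principal components were taken over protein-coding genes with enough counts for edgeR's filter. On the first (58.6% of the variance) control replicate 3 lay with the other controls, at 86.6 against 82.4 and 155, and *daf-16(0)* libraries were from -143 to -70.0. On the second (20.2%) it stood apart from all others, at 138 against -68.2 to 12.6. *daf-16(0)* replicate 1, also left out of the deposited comparison, was lowest on the third (9.20%), at -77.3 against -40.2 to 48.8. Results that involve control replicate 3 are given with and without it.

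Ribosomal protein genes held 15.2%, 13.8% and 11.4% of the protein-coding counts in *daf-16(0)* replicates 1 to 3, and 5.91%, 3.83% and 15.1% in control replicates 1 to 3. The share was high in every *daf-16(0)* library, low in control replicates 1 and 2, and as high in control replicate 3 as in any *daf-16(0)* library. Over the 4 libraries of the deposited comparison *daf-16(0)* averaged 12.6 ± 1.66% and control 4.87 ± 1.47% (SD, n = 2 each), a ratio of 2.59. Over all 6 libraries they were 13.5 ± 1.89% and 8.29 ± 6.01% (SD, n = 3 each), a ratio of 1.62, and the groups overlapped. The exact (Clopper-Pearson) 95% interval of a library's share reached at most 0.0230 percentage points to either side and covers counting error only, so the differences among controls were far larger than counting error. In whole animals, fewer cells that express these genes and less RNA per cell cannot be told apart.

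**Figure D1:**
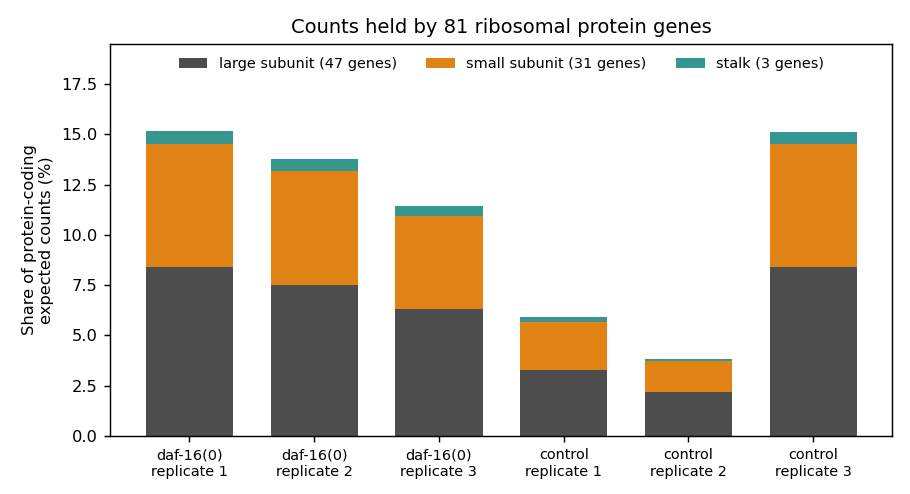
Share of each library's protein-coding expected counts (percent, vertical axis) held by the 81 ribosomal protein genes, with the bars split into large subunit, small subunit and stalk genes. The *daf-16(0)* libraries lie between 11.4% and 15.2%, control replicates 1 and 2 at 5.91% and 3.83%, and control replicate 3 at 15.1%.

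Collagen genes, which encode the main proteins of the cuticle, held 3.14%, 4.26% and 4.00% of the protein-coding counts in *daf-16(0)* replicates 1 to 3, against 9.35%, 14.9% and 5.14% in control replicates 1 to 3. With the collagens taken out of the total, the share of the ribosomal protein genes was 15.7%, 14.4% and 11.9% in *daf-16(0)*, against 6.52%, 4.51% and 15.9% in control. The order of the libraries was the same as before except at the top, where control replicate 3 passed *daf-16(0)* replicate 1. Ribosomal RNA genes held 0.528%, 0.0599% and 1.24% of all expected counts in *daf-16(0)*, against 8.64%, 1.44% and 0.128% in control. The part of ribosomal RNA carry-over in the differences was not tested.

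The subunits moved together. Large subunit genes held 8.42%, 7.51% and 6.28% of the protein-coding counts in *daf-16(0)* replicates 1 to 3, against 3.30%, 2.16% and 8.39% in control replicates 1 to 3. The counts of large over small subunit genes stood at a ratio of 1.38, 1.33 and 1.35 in *daf-16(0)*, against 1.38, 1.41 and 1.37 in control. The ratio thus stayed within a narrow range across libraries whose total share differed by several-fold, and the ranges of the genotypes overlapped.

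These genes were among the most highly expressed of the animal. In *daf-16(0)* replicates 1 to 3, 48, 43 and 33 of the 81 were among the 100 protein-coding genes with the most counts, against 13, 2 and 44 in control replicates 1 to 3. Among the 500 genes with the most counts there were 77, 76 and 73 in *daf-16(0)*, against 65, 53 and 77 in control. In control replicate 2, the library with the lowest share, most of them thus remained among the abundant genes but few stood at the very top. The median level of the 81 was 1689, 1490 and 1306 normalized CPM in *daf-16(0)*, against 753, 486 and 1625 in control.

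Of the 81 genes, 80 had enough counts for edgeR's filter. The remaining gene, *rpl-42*, had 15, 12 and 0 expected counts in *daf-16(0)* replicates 1 to 3 and 0 in each control library, where a count of 0 allows up to 0.370, 0.323 and 0.168 CPM in control replicates 1 to 3 (3 counts per library). It was not tested. The members called in the tests are counted out of the remaining 80.

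The order of the libraries was nearly the same from gene to gene. Control replicate 2 was the lowest library for 78 of the 80 genes, and control replicates 1 and 2 were the lowest pair for 79. Control replicate 3 lay above the other controls for all 80 genes and above every *daf-16(0)* library for 36 of them. Among the *daf-16(0)* libraries, replicate 1 was above replicate 2 and replicate 2 above replicate 3 for 72 genes. The log2 level of a gene over its own mean in the 6 libraries had a median of 0.43, 0.27 and 0.093 in *daf-16(0)* replicates 1 to 3, against -0.69, -1.41 and 0.42 in control replicates 1 to 3.

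**Figure D2:**
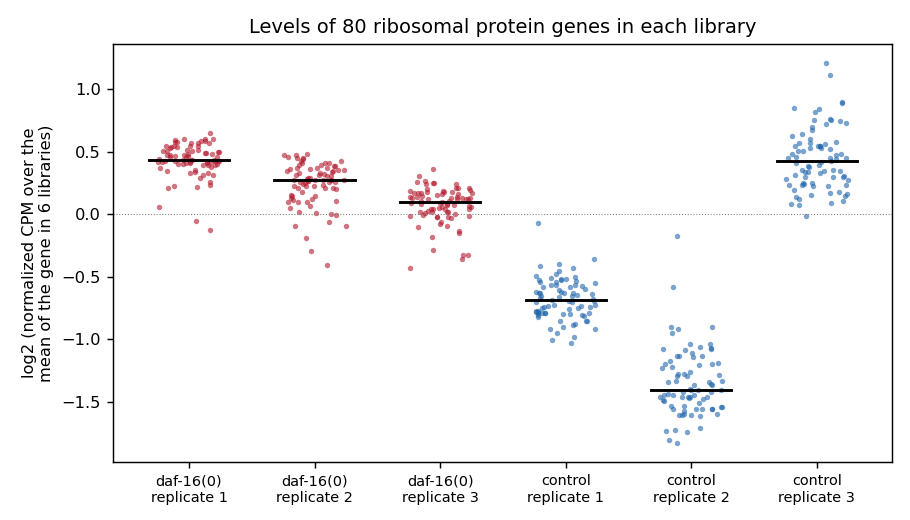
Each point is a ribosomal protein gene in a library, with its log2 normalized CPM over the mean of that gene in the 6 libraries on the vertical axis, and black lines are medians over the 80 genes. Median values run from 0.093 to 0.43 in *daf-16(0)*, and are -0.69 and -1.41 in control replicates 1 and 2 and 0.42 in control replicate 3.

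In the 4 libraries, every one of the 80 genes had a positive log2 fold change (53.2% of all genes tested did), but few passed the adjusted threshold. By edgeR's quasi-likelihood test on 13536 genes, 7 of the 80 (8.75%) were higher in *daf-16(0)* at an adjusted p of 0.05 or less and 0 were lower. Among all genes tested 5.37% were higher and 9.59% were lower by the same rule. The share of called members was thus close to the background. The median log2 fold change came to 1.18 (quartiles 1.00 and 1.33), a 2.26-fold difference, beside 0.11 over all genes tested. The fold changes of the members spread little: their SD was 0.29, beside 2.11 over all genes tested.

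Most adjusted p-values lay not far above the threshold. They ranged from 0.0308 to 0.867 with a median of 0.0803, and 51 of the 80 were at 0.1 or less. The median standard error of a log2 fold change came to 0.37. At an unadjusted p under 0.05 there were 69 genes (86.3%), beside 35.98% of all genes tested. The *daf-16(0)* libraries were both above both control libraries for 79 of the 80 genes, an arrangement found in 37.4% of all genes tested. The exception was *rpl-41.1*.

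*rps-13* (WBGene00004482, chromosome III, 6374048 to 6374997 of WBcel235), which encodes a small subunit protein, had the largest difference. It had 1354, 1227 and 1108 normalized CPM across *daf-16(0)* replicates 1 to 3, against 446, 294 and 951 in control replicates 1 to 3. Every *daf-16(0)* library was above every control library. Its log2 fold change reached 1.66 by the 4-library test (SE 0.36, adjusted p = 0.0308) and 1.11 by the 6-library test (SE 0.47, adjusted p = 0.159).

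The stalk is made of the protein encoded by *rla-0*, which anchors it, and the acidic proteins encoded by *rla-1* and *rla-2*, which bind elongation factors at its tip. *rla-1* (WBGene00004409, chromosome I, 2069086 to 2069587) had 1494, 1432 and 1241 normalized CPM across *daf-16(0)* replicates 1 to 3, against 563, 311 and 1487 in control replicates 1 to 3. Control replicate 3 was inside the range of *daf-16(0)*, and the other controls were well below it. Its log2 fold change came to 1.61 by the 4-library test (SE 0.40, adjusted p = 0.0442) and 0.80 by the 6-library test (SE 0.56, adjusted p = 0.372).

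*rla-0* had 4198, 3816 and 3405 normalized CPM in *daf-16(0)*, against 1656, 973 and 3173 in control. It was separated in all 6 libraries, with log2 fold changes of 1.46 by the 4-library test (SE 0.40, adjusted p = 0.0572) and 0.96 by the 6-library test (SE 0.50, adjusted p = 0.241). *rla-2* had 611, 480 and 472 normalized CPM in *daf-16(0)*, against 361, 165 and 792 in control. Control replicate 3 was its highest library, and its log2 fold change came to 0.86 by the 4-library test (SE 0.43, adjusted p = 0.197) and 0.23 in all 6. *rpl-12*, whose product sits at the base of the stalk, had 1897, 1502 and 1358 normalized CPM in *daf-16(0)*, against 1084, 625 and 2127 in control, and likewise was highest in control replicate 3. Its log2 fold change came to 0.75 by the 4-library test (SE 0.38, adjusted p = 0.209) and 0.29 in all 6. None of *rla-0*, *rla-2* and *rpl-12* passed the threshold in either set of libraries.

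The median log2 fold change of the 31 small subunit genes came to 1.20 in the 4 libraries. Of these genes, 4 were called higher, beside 5.37% of all genes tested. Besides *rps-13* these were *rps-19*, *rps-20* and *rps-30*. *rps-19* had 1392, 1275 and 1131 normalized CPM across *daf-16(0)* replicates 1 to 3, against 509, 322 and 1127 in control replicates 1 to 3. Its groups did not overlap, although *daf-16(0)* replicate 3 and control replicate 3 were nearly equal. The log2 fold change in the 4 libraries was 1.54 (SE 0.36, adjusted p = 0.0395). *rps-19* overlaps *nra-2* and *T05F1.2* on the opposite strand, which had no more than 2231 expected counts in a library, beside its own 2836 to 22026.

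*rps-20* had 1939, 1605 and 1586 normalized CPM in *daf-16(0)*, against 710, 501 and 1629 in control, with control replicate 3 inside the range of *daf-16(0)*. Its log2 fold change in the 4 libraries was 1.40 (SE 0.34, adjusted p = 0.0436). The expected counts of *rps-20* were not whole in *daf-16(0)* replicates 1 and 2, so part of its reads there was shared with other sequences. *rps-30* had 1100, 1009 and 918 normalized CPM in *daf-16(0)*, against 410, 303 and 1292 in control, with control replicate 3 the highest library. The fitted log2 fold change came to 1.43 by the 4-library test (SE 0.33, adjusted p = 0.0369) and 0.58 by the 6-library test (SE 0.55, adjusted p = 0.516). *rps-2*, the fourth largest difference among the 80 (log2 fold change 1.51, SE 0.42), missed the threshold with an adjusted p of 0.0599.

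The 46 large subunit genes tested had a median log2 fold change of 1.13 in the 4 libraries. Only 2 of them were called higher, beside 5.37% of all genes tested. *rpl-16* had 2286, 2083 and 1796 normalized CPM across *daf-16(0)* replicates 1 to 3, against 867, 532 and 1837 in control replicates 1 to 3. Control replicate 3 lay just above the lowest *daf-16(0)* library. Its log2 fold change in the 4 libraries was 1.47 (SE 0.38, adjusted p = 0.0495). *rpl-16* overlaps *M01F1.3* on the same strand, which had no more than 2262 expected counts in a library.

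*rpl-37* was called with a smaller difference at a far lower level. It stood at 54.6, 51.0 and 49.4 normalized CPM in *daf-16(0)*, against 21.6, 22.8 and 57.1 in control, with control replicate 3 the highest library. Its log2 fold change in the 4 libraries was 1.18 (SE 0.30, adjusted p = 0.0493). It overlaps *pitp-1* on the opposite strand, which had up to 684 expected counts in a library, in the range of its own 155 to 1115. Its expected counts were not whole in any library, so part of its reads was shared with other sequences. Its value is uncertain for that reason.

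In all 6 libraries none of the 80 genes was called in either direction by edgeR's quasi-likelihood test, while 5.08% of the 13633 genes tested were higher and 7.39% lower. The count was also 0 by DESeq2, which called 23.3% of all genes in either direction. At an unadjusted p under 0.05 there was 1 gene, *rps-13*, or 1.25% of the members, beside 30.1% of all genes tested. The median log2 fold change came to 0.62, with a range from -0.54 to 1.11 and a median standard error of 0.50. Of the 80, 74 were positive, beside 52.9% of all genes tested. Medians were 0.57 for large subunit, 0.64 for small subunit and 0.80 for stalk genes. Every *daf-16(0)* library was above every control library for 10 of the 80 genes (21.8% of all genes tested have this arrangement). With control replicate 3 left out and the other 5 libraries kept, 41 of the 80 were called higher (51.2%, beside 8.92% of all genes tested), 79 did not overlap (33.0% of all genes tested lie that way) and the median was 1.24. With 1 of the 6 libraries left out at a time, members were called only when that library was control replicate 3.

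**Figure D3:**
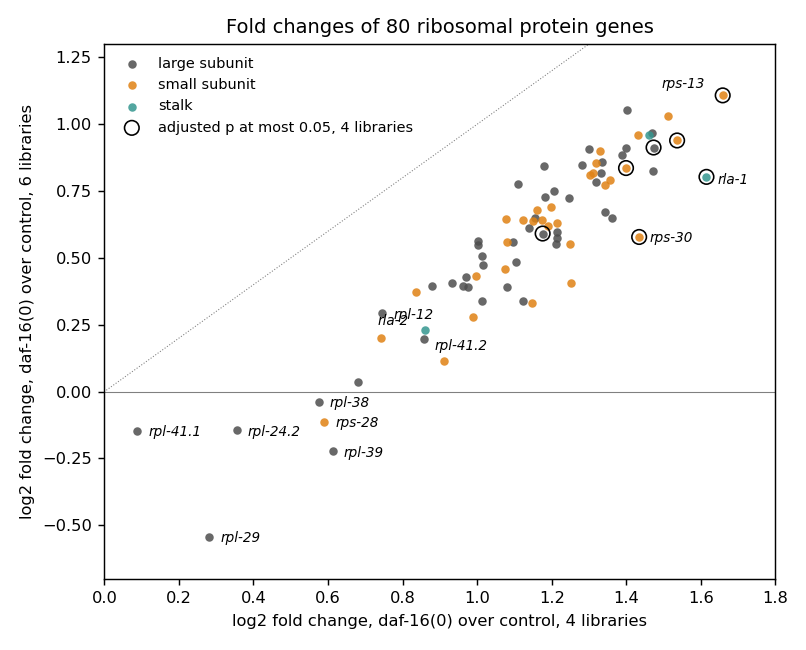
Log2 fold change of *daf-16(0)* over control for 80 ribosomal protein genes in the 4 libraries of the deposited comparison (horizontal axis) and in all 6 libraries (vertical axis); open circles mark the 7 genes at an adjusted p of 0.05 or less in the 4 libraries and the dotted line marks equal values. All points lie below the dotted line, and 6 genes, *rpl-29* the lowest at -0.54, are below 0 in all 6 libraries.

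Single libraries moved the count in the 4-library test. With *daf-16(0)* replicate 2 or *daf-16(0)* replicate 3 left out, 0 members were called higher, beside 1.9% and 2.73% of all genes tested. Without control replicate 2 there was 1, beside 4.05% of all genes, and without control replicate 1 there were 69, beside 13.0%. Without control replicate 2 the median log2 fold change came to 0.84, and without control replicate 1 it was 1.59. DESeq2 on the same 4 libraries called 67 of the 80, all of them higher (83.8% of the members, beside 1645 of all 14629 genes with an adjusted p called higher and 25.5% called in either direction). No member was called lower in any setting tried.

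Marker lists of other tissues and stages also differed between the libraries, some with control replicate 3 near *daf-16(0)* and some with it near the other controls. Germline markers (12 genes, such as the P-granule helicase gene *glh-1*) summed to 1199, 883 and 512 normalized CPM across *daf-16(0)* replicates 1 to 3, against 375, 182 and 654 in control replicates 1 to 3. Oocyte markers (9 genes, among them the yolk receptor gene *rme-2*) summed to 1680, 675 and 151 normalized CPM in *daf-16(0)*, against 63.4, 29.7 and 1187 in control. For both lists, as with the ribosomal protein genes, control replicate 2 was the lowest library, control replicate 1 the next, and control replicate 3 fell within the range of *daf-16(0)*. In the 4 libraries, where 5.37% of all genes were called higher and 9.59% lower, 1 of the 12 germline, 2 of the 9 oocyte, 6 of the 6 yolk, 11 of the 28 tested sperm and 2 of the 4 adult cuticle markers were called higher. So were 1 of the 5 intestine and 1 of the 4 hypodermis markers, and 0 of the 4 body muscle and 0 of the 2 pharynx muscle markers. Of the lower calls, 4 were among the 4 dauer cuticle and 1 among the 5 neuron markers.

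The 6 yolk protein genes, which adult intestine expresses, summed to 23325, 13797 and 25845 normalized CPM in *daf-16(0)*, against 317, 124 and 18307 in control. Sperm markers summed to 681, 703 and 138 normalized CPM in *daf-16(0)*, against 26.8, 6.35 and 13.3 in control, and here control replicate 3 was not high. Dauer cuticle genes summed to 27.1, 1187 and 1827 normalized CPM in *daf-16(0)*, against 31680, 42730 and 11110 in control, so that control replicate 3 was the lowest control but still above every *daf-16(0)* library. Body muscle genes summed to 4287, 5715 and 12575 normalized CPM in *daf-16(0)*, against 24761, 15181 and 5905 in control, with control replicate 3 again inside the range of *daf-16(0)*. Adult cuticle, neuron, intestine and hypodermis markers were further lists for which control replicate 3 lay with the other controls. Adult cuticle genes summed to 1349, 791 and 458 normalized CPM in *daf-16(0)*, against 36.8, 4.77 and 30.6 in control. Neuron markers summed to 460.0, 564 and 681 normalized CPM in *daf-16(0)*, against 1058, 1320 and 970.5 in control. Intestine markers summed to 1944, 2100 and 2782 normalized CPM in *daf-16(0)*, against 1464, 1338 and 990 in control, with control replicate 3 the lowest library, unlike the yolk genes. Hypodermis markers summed to 269, 279 and 260 in *daf-16(0)*, against 200, 228 and 197 in control. Pharynx muscle genes summed to 198, 598 and 687 in *daf-16(0)*, against 625, 288 and 328 in control, and the genotypes overlapped. Larvae were labelled as dauer in every library. The part of these tissues and stages in the levels of the ribosomal protein genes was not tested.

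**Figure D4:**
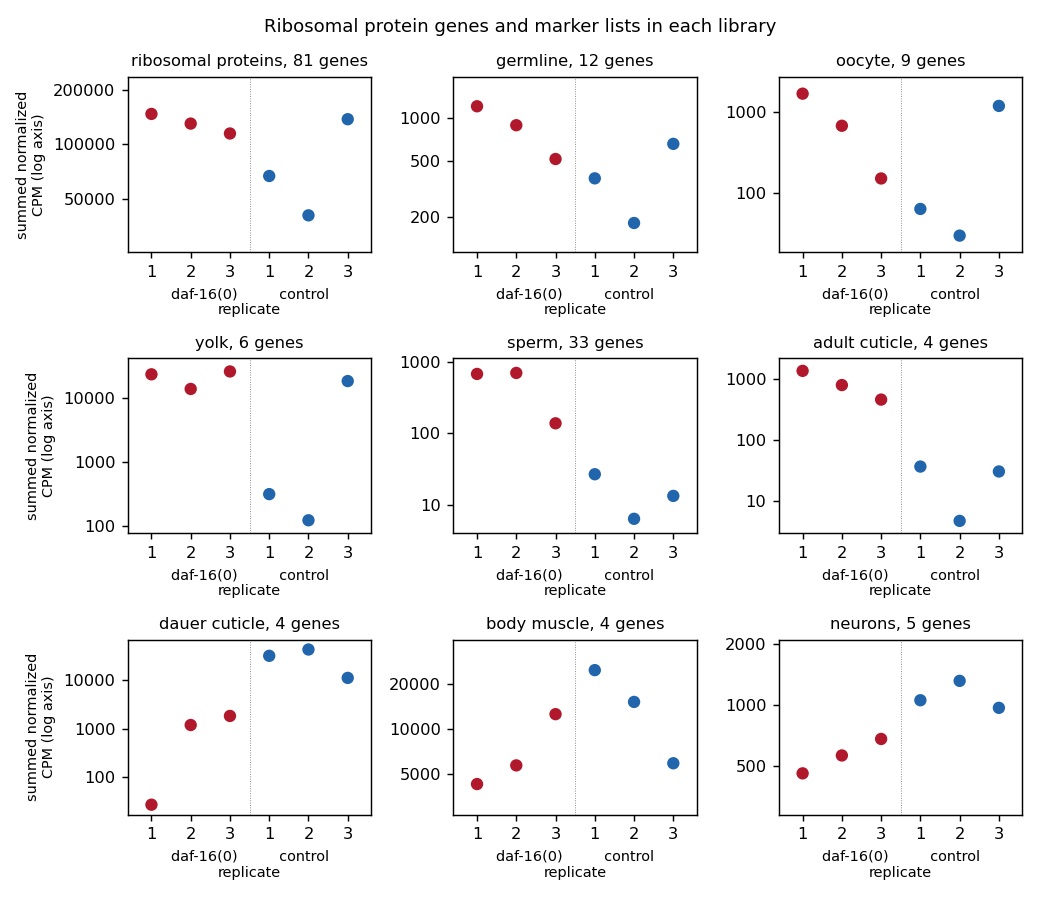
Summed normalized CPM (log axes) of the ribosomal protein genes and of 8 marker lists in each library, *daf-16(0)* replicates left of the dotted line and control replicates right of it. Control replicate 3 lies with *daf-16(0)* for ribosomal protein, germline, oocyte, yolk and body muscle genes, and on the side of the other controls for sperm, adult cuticle, neuron and dauer cuticle genes (for dauer cuticle, at most 1827 in *daf-16(0)* against 11110).

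The common shift hides differences among the members, which were followed by dividing each gene's level by the median member of its library. The log2 of this proportion had an SD over the 6 libraries of 0.15 at the median gene, beside 0.76 for the level itself. For 61 of the 80 genes the mean proportion differed between genotypes by 0.3 or less on the log2 scale. *rps-8*, chosen after its values were seen, was the steadiest, with an SD of 0.041. Every *daf-16(0)* library was above every control library in this proportion for 19 of the 80 genes and below for 19. Over all genes tested and divided in the same way, 7.42% were above and 23.2% below. The divisor was itself higher in *daf-16(0)* (median log2 fold change of the members 0.62 in all 6 libraries, beside 0.091 over all genes tested). Dividing by it moves other genes down in *daf-16(0)*, while the members are centred on it by construction. The shares over all genes are therefore not a like background, and no excess is read from either count. With 3 libraries per group an exact permutation test cannot give a two-sided p below 0.10, so these differences are descriptions.

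*rps-13* had log2 proportions of -0.33, -0.28 and -0.26 in *daf-16(0)* replicates 1 to 3, against -0.77, -0.73 and -0.77 in control replicates 1 to 3. It was thus a larger part of the set in *daf-16(0)*, by 0.47, and control replicate 3 lay with the other controls. At the other end, *rpl-29* had log2 proportions of -1.97, -2.13 and -1.99 in *daf-16(0)*, against -1.27, -1.02 and -0.64 in control, a difference of -1.05. The genes next to it were *rpl-41.1* (-0.95), *rpl-24.2* (-0.81), *rpl-39* (-0.70), *rps-28* (-0.68) and *rpl-38* (-0.63). All were below in every *daf-16(0)* library, as were 23.2% of all genes tested, a share that depends on the divisor. These are the same 6 genes with a positive log2 fold change in the 4 libraries and a negative one in all 6.

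*rpl-29* itself had 434, 340 and 334 normalized CPM in *daf-16(0)*, against 314, 241 and 1042 in control. Control replicate 3 exceeded every other library by more than any *daf-16(0)* library differed from the remaining controls. On the log2 scale the difference came to 0.28 by the 4-library test (SE 0.30, adjusted p = 0.532) and -0.54 by the 6-library test (SE 0.55, adjusted p = 0.543). *rpl-39*, whose product lines the exit tunnel of the large subunit, had 410, 284 and 278 normalized CPM in *daf-16(0)*, against 214, 153 and 754 in control, and showed the same excess in control replicate 3.

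These genes are short, apart from *rpl-24.2*. The merged exons had a median length of 530 bases over the members (1161 over protein-coding genes), and *rpl-39*, *rpl-29*, *rps-28*, *rpl-38* and *rpl-41.1* measure 236, 240, 252, 300 and 331 bases. The 11 members under 350 bases had median log2 fold changes of 0.86 by the 4-library test and 0.11 by the 6-library test. For the 24 members from 350 to below 500 bases these medians were 1.12 and 0.56, for the 25 from 500 to below 700 bases 1.25 and 0.72, and for the 20 members of 700 bases or more 1.23 and 0.78. Shorter members thus differed less between genotypes, and the difference by length was wider when control replicate 3 was included.

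Spearman's rho between exon length and log2 fold change over the 80 members was 0.46 in the 4 libraries and 0.64 in all 6. Over all genes tested with a known length it was -0.061 (13302 genes) and -0.018 (13622 genes). It was 0.14 and 0.31 over 71 genes for mitochondrial ribosomal proteins and -0.29 and -0.25 over 33 proteasome genes. The level of control replicate 3 over the mean of *daf-16(0)* had a rho of -0.69 with length among the members, and its median was 1.57 for members under 350 bases and 0.91 for those of 700 bases or more. These are correlations across genes measured in the same libraries, genes are not independent replicates, and length goes with level among the members (rho 0.80 with mean CPM, 0.30 with mean CPM per kb). The part of level, as against length, in this pattern was not tested.

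**Figure D5:**
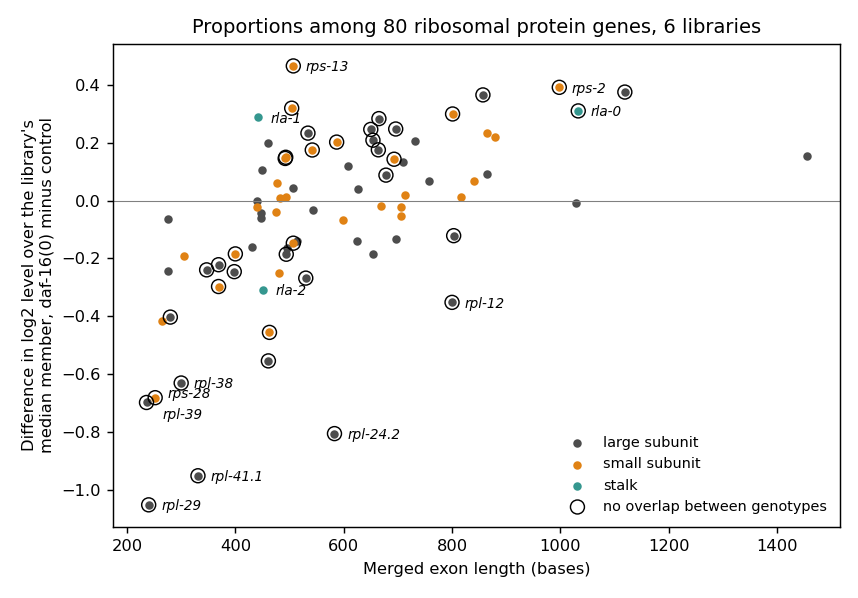
Difference between genotypes in the log2 level over the library's median member (*daf-16(0)* mean minus control mean, 6 libraries, vertical axis) against merged exon length in bases (horizontal axis) for 80 ribosomal protein genes, with open circles where the genotypes do not overlap. The lowest points, *rpl-29* at -1.05 and *rpl-41.1* at -0.95, are short genes, and *rps-13* is highest at 0.47.

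Where a member shares its number with another, the division of counts between them was compared. *rpl-24.1* and *rpl-24.2* belong to the same protein family, but whether their products have the same role was not examined. *rpl-24.2* held 4.06%, 3.58% and 3.67% of the counts of the pair in *daf-16(0)* replicates 1 to 3, against 5.18%, 8.24% and 5.75% in control replicates 1 to 3. Its part was lower in every *daf-16(0)* library. The intervals, of at most 0.733 percentage points to either side, cover counting error only, and the controls differed among themselves by more than that. In level, *rpl-24.2* had 89.3, 72.5 and 60.4 normalized CPM in *daf-16(0)*, against 52.0, 51.9 and 139 in control. In log2 units it differed by 0.36 by the 4-library test (SE 0.29, adjusted p = 0.402), beside 1.21 for *rpl-24.1* (SE 0.38, adjusted p = 0.0787). *rpl-24.2* overlaps *C03D6.1* on the opposite strand, which had up to 122 expected counts in a library, beside its own 373 to 2714.

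*rpl-41.1* and *rpl-41.2* lie next to each other on chromosome I (4789190 to 4789592 and 4790292 to 4790649) and each has a coding sequence of 66 bases without the stop codon. *rpl-41.1* held 3.16%, 4.90% and 3.45% of their counts in *daf-16(0)*, against 6.93%, 6.92% and 3.29% in control, and the genotypes overlapped. Its level, 40.4, 51.0 and 35.2 normalized CPM in *daf-16(0)* against 42.0, 39.2 and 57.2 in control, gave the smallest log2 fold change among the 80, 0.088 (SE 0.33, adjusted p = 0.867). *rpl-41.2* had 1237, 991 and 984 normalized CPM in *daf-16(0)*, against 564, 526 and 1681 in control, and a log2 fold change of 0.86 (SE 0.30, adjusted p = 0.100). It overlaps *zig-7* on the opposite strand.

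For *rpl-25.1* and *rpl-25.2* the division was nearly even and the genotypes overlapped, with *rpl-25.1* at 53.7%, 49.5% and 57.1% in *daf-16(0)* and 54.3%, 52.8% and 54.3% in control. For *rpl-11.1* and *rpl-11.2*, *rpl-11.1* held 22.6%, 26.8% and 16.8% in *daf-16(0)*, against 25.3%, 25.9% and 28.96% in control, again with overlap. *rpl-7A* and *rpl-7* encode different proteins in spite of their names. *rpl-7A* held 45.3%, 44.8% and 45.7% of their counts in *daf-16(0)*, against 40.3%, 32.4% and 38.8% in control, higher in every *daf-16(0)* library. The expected counts of *rpl-7A* were not whole in any library, and *rpl-7* overlaps *F53G12.9* on its own strand, so this division is uncertain. *rpl-36.A* and *rpl-36* are likewise paired by number only, and they are not taken here to be copies of the same gene. *rpl-36.A* held 52.4%, 56.2% and 53.4% of their counts in *daf-16(0)*, against 55.3%, 53.1% and 53.99% in control, with overlap.

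Per kb of exon, the highest members by mean level over the 6 libraries were *rps-14* (3612 CPM per kb), *rpl-41.2* (3561), *rps-23* (3543), *rpl-10* (3459) and *rpl-14* (3257). The product of *rps-23* lies at the decoding site of the small subunit, and that of *rpl-10* near the site of peptide bond formation. The lowest after *rpl-42* were *rpl-24.2* (133 CPM per kb), *rpl-41.1* (133), *rpl-37* (155) and *rpl-11.1* (645). The median member stood at 3219, 2764 and 2467 CPM per kb in *daf-16(0)* replicates 1 to 3, against 1355, 842 and 2941 in control replicates 1 to 3. The median of all protein-coding genes was from 3.49 to 4.42 CPM per kb in these libraries.

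The members are compact genes with a median of 3 exons (5 over protein-coding genes), and their positions are uneven. Chromosome I carries 25 of the 81, chromosomes III and IV carry 18 each, and the X chromosome carries only *rpl-11.2* and *rpl-25.1*, 2.47% of the members beside 13.8% of protein-coding genes. Within 13 members lie 19 small nucleolar RNA genes, and 21 members overlap another protein-coding gene, 16 of them on the opposite strand. The sources used here do not give the strand setting of the counting, so reads of such overlaps cannot be assigned with certainty.

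Other genes of the translation machinery were counted by lists with the same tests. The 3 ribosomal proteins with names of another kind, *ubl-1*, *ubq-2* (ubiquitin-like or ubiquitin fused to a ribosomal protein) and *rack-1* (a scaffold on the small subunit), were at log2 fold changes of 1.43, 1.03 and 1.39 in the 4 libraries, and 0 were called. Their sum was 5824, 5365 and 4588 normalized CPM across *daf-16(0)* replicates 1 to 3, against 2597, 1450 and 4731 in control replicates 1 to 3, the same order of the libraries at the low end as for the members.

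Of 6 elongation factor genes, 0 were called in either set of libraries, and the median log2 fold change came to 1.09 in the 4 libraries and 0.73 in all 6. *eef-1B.1* (1.22) and *eef-1B.2* (1.22), subunits of the exchange factor, were at the upper end. *eef-1A.2*, a copy of the factor that brings aminoacyl-tRNA, was at -0.0038 with 2076, 1960 and 2639 normalized CPM in *daf-16(0)* against 2764, 1845 and 2230 in control. Of 36 initiation and cap-binding genes, 1 was called higher (*eif-3.K*) and 1 lower (*pab-2*, a poly(A)-binding protein gene, log2 fold change -1.45, adjusted p = 0.0286), with a median of 0.86, beside 5.37% and 9.59% of all genes. The largest log2 fold change of this list, 3.56 (SE 1.53, adjusted p = 0.150), was that of *ife-5*, a gene for a cap-binding eIF4E protein, with 6.52, 10.3 and 4.31 normalized CPM in *daf-16(0)* against 1.25, 0 and 6.14 in control. In all 6 libraries it was at 1.47, 4 genes of the list were higher and 1 lower (5.08% and 7.39% of all genes), and the median was 0.63.

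As a background for the next lists, 5.37% of all genes tested were called higher and 9.59% lower in the 4 libraries (5.08% and 7.39% in all 6). The 71 genes of mitochondrial ribosomal proteins had a median log2 fold change of 0.98 in the 4 libraries, with 5 higher and 0 lower. In all 6 their median was 0.54, with 2 higher and 0 lower. *mrpl-12* had the largest, 1.92 (SE 0.37, adjusted p = 0.0224), with 41.9, 58.0 and 41.7 normalized CPM in *daf-16(0)* against 14.9, 11.5 and 29.6 in control. Every *daf-16(0)* library was above every control library for this gene. *mrps-15* followed at 1.88 (SE 0.41, adjusted p = 0.0314), and in all 6 libraries it was at 1.56 with an adjusted p of 0.0360. Ribosome biogenesis and RNA polymerase I genes (23) had a median of 0.86 with 1 called, *pro-3*, and cytosolic aminoacyl-tRNA synthetase genes (20) a median of 0.69 with 3 called, *fars-1*, *qars-1* and *kars-1*.

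The 33 proteasome genes, another large and abundant complex, had median log2 fold changes of 0.20 by the 4-library test and 0.22 by the 6-library test, and 0 were called in either. Their sum was 4928, 5033 and 4200 normalized CPM across *daf-16(0)* replicates 1 to 3, against 4013, 4142 and 4385 in control replicates 1 to 3, and the groups overlapped. Control replicates 1 and 2 were the lowest libraries here too, by a smaller gap than for the ribosomal protein genes. Of 8 known regulators of growth and ribosome output, among them the TOR kinase gene *let-363* (log2 fold change 0.023) and the S6 kinase gene *rsks-1* (-0.31), 1 was called, *pha-4*, a FoxA transcription factor gene. It was lower, with 22.3, 22.9 and 35.5 normalized CPM in *daf-16(0)* against 81.1, 88.2 and 26.5 in control, a log2 fold change of -1.54 (SE 0.33, adjusted p = 0.0320) in the 4 libraries and -1.30 (SE 0.48, adjusted p = 0.112) in all 6. Control replicate 3 lay with *daf-16(0)* for *pha-4* too.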

How the data were processed

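Reads were clipped and trimmed (Trimmomatic 0.39), mapped to WBcel235 (STAR 2.4.2a) and quantified per gene (RSEM 2.1) by the authors, who deposited expected counts, not normalized, for 46904 genes in 6 libraries. FastQC 0.11.7 and DESeq2 1.30.0 are also named. A deposited table of normalized counts of 4 libraries and the authors' comparison (log2 fold changes, p-values, adjusted p-values) were not used. Strand settings are not given in the sources used here.

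Expected counts of protein-coding genes were rounded and tested in edgeR 4.0.16 (R 4.3.3; TMM, filterByExpr, quasi-likelihood test, Benjamini-Hochberg adjustment over all genes tested, called at 0.05). Every adjusted p comes from this test unless DESeq2 1.42.0 is named. Standard errors are the log2 fold change over the square root of F. Levels are CPM with TMM factors over 6 libraries, shares are percentages of counts. Summaries used Python 3.11, SciPy 1.17.1 and pandas 2.3.3. The fits were tested on simulated data. Coordinates are the deposited ones; exon lengths are merged exons of Ensembl release 115, which gives 16 of the 81 members the same coordinates.

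Members and lists were chosen with earlier results of these data known. Members named are those sharing a number with another, the stalk and *rpl-12*, the 5 highest and lowest per kb, the 5 largest and smallest log2 fold changes, those called, and those changing sign between fits by over 0.5; in other lists, the genes at the ends of the log2 fold change. *rps-8*, *eif-3.K*, *fars-1*, *glh-1*, *rme-2*, *let-363*, *rsks-1* and the overlapping *pitp-1*, *zig-7*, *nra-2*, *T05F1.2* and *C03D6.1* were added after their values were seen. Alternatives were RLE or library-size scaling, no filter, a mean of at least 10 counts, DESeq2, a log2 fold change of at least 1, all biotypes, a replicate block and leaving out each library.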

Additional observations from a re-analysis of the deposited data

How the results depend on the processing

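In the 4 libraries, the count of 7 members called higher became 12 with RLE scaling, 41 with library size alone, 41 with no filter on low counts and 67 with DESeq2, beside 5.84%, 8.47% and 9.41% of all genes called higher in the first 3 of these settings and 1645 of 14629 genes with DESeq2. Leaving out each library gave from 0 to 69, and all 6 libraries gave 0. The median log2 fold change of 1.18 ranged from 0.84 to 1.59 with each library left out and was 0.62 with all 6. Scaling by library size alone moved the median of all genes to 0.27 and that of the members to 1.35, so that the members stood 1.07 above all genes with either scaling. In all 6 libraries the count of 0 became 41 without control replicate 3 and was 0 without any other library and in every other setting, and the medians with each library left out ranged from 0.29 to 1.24. The settings of adding a fold threshold, a mean of at least 10 counts or all biotypes moved no count by over 1.5 times.

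Of the single genes, signs turned with all 6 libraries in place of 4 for *rpl-24.2* (-0.14), *rpl-29* (-0.54), *rpl-38* (-0.038), *rpl-39* (-0.22), *rpl-41.1* (-0.15) and *rps-28* (-0.11). With each of the 4 libraries left out *rpl-41.1* ranged from -0.19 (without *daf-16(0)* replicate 2) to 0.36. With each of the 6 libraries left out, the range was from -0.39 to 0.51 for *rpl-24.2*, -0.89 to 0.41 for *rpl-29*, -0.38 to 0.70 for *rpl-38*, -0.60 to 0.81 for *rpl-39*, -0.29 to 0.050 for *rpl-41.1*, -0.47 to 0.64 for *rps-28*, -0.17 to 0.98 for *rla-2*, -0.042 to 0.89 for *rpl-12* and -0.087 to 0.97 for *rpl-41.2*. The highest value of each came without control replicate 3. Over all named members and alternatives, 634 values kept their direction and side of the threshold, 31 lost a call in the same direction, 56 gained one and 23 changed sign. The causes were not tested.

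Replicate numbers are not known to pair the libraries. Deviations from the group means correlated at -0.05, -0.01 and -0.22 between libraries of the same number, and from -0.18 to 0.22 between libraries of different number. With 3 libraries per group these values cannot tell whether libraries of the same number share a batch. With the replicate number as a block in the 6 libraries, 0 members were called, their median was 0.81, and *rpl-24.2* was at 0.018, *rpl-38* at 0.19, *rpl-39* at 0.15 and *rps-28* at 0.14. Over all genes the block gave 162 higher and 222 lower, beside 693 and 1008 without it. The 4 libraries share 1 number and could not be blocked.

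With 2 or 3 libraries per genotype and controls that differ by several-fold in these genes, the smallest difference called among the members by edgeR in the 4 libraries was 1.18 on the log2 scale. Smaller ones were called by DESeq2 and without control replicate 3. Depth was a limit for *rpl-42* alone.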
